A study of Gallus gallus with 10 samples.

Results

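The cadherins and protocadherins are the cell surface proteins that hold the cells of epithelia together and let tissues sort from one another. They were followed here as the 48 genes of the chicken gene table whose symbol is CDH with a number (20 genes) or begins with PCDH (28 genes), out of 25443 genes in all, and their transcript levels were read in 10 RNA-seq libraries from embryos with and without exogenous Otx2. CDH3 and CDH2 were the leading members in the midbrain-hindbrain and the control trunk, whereas CDH17 and CDH5 stood beside or above CDH3 in the area opaca, the tissue outside the embryo proper. In the trunk, exogenous Otx2 was accompanied by higher PCDH15 and PCDHAC1 and by lower PCDH19 and PCDH8. These calls came from a fit of 8 libraries, and 0 members were called with only the 4 trunk libraries. One of the control trunk libraries carried almost no vector, and PCDHAC1 had at most 23 reads in a trunk library. In the midbrain-hindbrain, no member passed the test.

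Cadherins are transmembrane proteins whose outer part, built of repeated domains held stiff by calcium, binds cadherins on the neighboring cell, mostly of the same kind. The cytoplasmic tail of the classical cadherins is anchored to actin through beta-catenin, alpha-catenin and p120-catenin. Type I classical cadherins (among them E-cadherin, CDH1, and N-cadherin, CDH2) give strong adhesion, and a switch from E-cadherin to N-cadherin accompanies the formation of the neural plate. Type II classical cadherins mark subsets of mesenchyme, vessels and neurons. Protocadherins lack the catenin anchor. They comprise the delta-1 and delta-2 groups, which act in tissue separation and morphogenesis, and the clustered alpha and gamma groups, whose genes share their last exons.

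All groups were wild-type chicken embryos collected at st. 10–11, and each library was made from the pooled tissue of 4 embryos. Apart from the control trunk, where the labels disagree, all had been electroporated during gastrulation. Embryos with exogenous Otx2 received pCAGGS-mOTX2, which drives the mouse cDNA from a ubiquitous promoter, together with pCAGGS-EGFP, whereas the controls received pCAGGS-EGFP and, according to the methods of the study, the vector without insert. The midbrain-hindbrain of controls (CH) and of Otx2 embryos (OH) and the sinus rhomboidalis of the trunk in controls (CT) and its equivalent in Otx2 embryos (OT) had 2 libraries each, and the posterior area opaca had 1 control library (CA) and 1 Otx2 library (OA). No label ties a pool to a separate batch of eggs, so the p-values measure the spread between pools. In CT this spread also holds the difference in vector between CT1 and CT2 that is given below. The labels of the control trunk disagree on electroporation: CT1 is titled as not electroporated while its treatment entry names the EGFP vector, and CT2 has the opposite combination.

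The libraries held between 28606038 and 40806402 reads assigned to genes. EGFP was at 1.12 TPM in CT1 (the StringTie measure of transcript level corrected for length and depth), from 12 reads, and at 1859 to 15328 TPM in all 9 other libraries, so that CT1 carried almost no vector, and trunk results are given below with and without it. Mouse Otx2 was at 97.4 and 160.3 TPM in OH, 334 and 529 TPM in OT and 139 TPM in OA, with 0 reads in the 5 control libraries. The summed level of 8 neural epithelium markers was 296 to 380 TPM in the CH and OH libraries, 85.0 and 117 TPM in CT, and 59.5 and 156 TPM in OT. The summed level of 10 endoderm and yolk sac markers was 33182 TPM in CA and 44194 TPM in OA, against 641 to 12485 TPM in the other libraries. In bulk tissue, fewer cells of a type and less RNA per cell cannot be told apart.

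The family as a whole took a similar place in every tissue. The summed level of the 48 members lay between 705 TPM in CA and 941 TPM in OH2, and their reads made up 0.158% to 0.215% of each library. Of the 48 genes, 17 reached 5 TPM in at least 1 library, another 15 peaked between 1 and 5 TPM, and 16 stayed under 1 TPM in all libraries. The lowest group consisted of CDH9, CDH18, CDH19, PCDHGA2 and 12 genes of the alpha cluster, and CDH19 had 0 reads in all 10 libraries. A level of 1 TPM in every library of a group was reached by 26 members in CH, 27 in OH, 19 in CT and 25 in OT, and by 20 in CA and 22 in OA. At a limit of 5 TPM the counts were 13 in CH, 14 in OH, 12 in CT and 11 in OT, so that CT had the fewest detected embryonic members at 1 TPM but not at 5 TPM. The count in CT needs both libraries and depends on CT1. CDH10, CDH20, PCDH12 and PCDH20 were at 0.256, 0.271, 0.979 and 0.759 TPM in CT1. In CT2 they were at 1.49, 1.08, 2.18 and 1.42 TPM. Only PCDH11X went the other way, at 1.07 TPM in CT1 and 0.987 TPM in CT2.

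**Figure D1:**
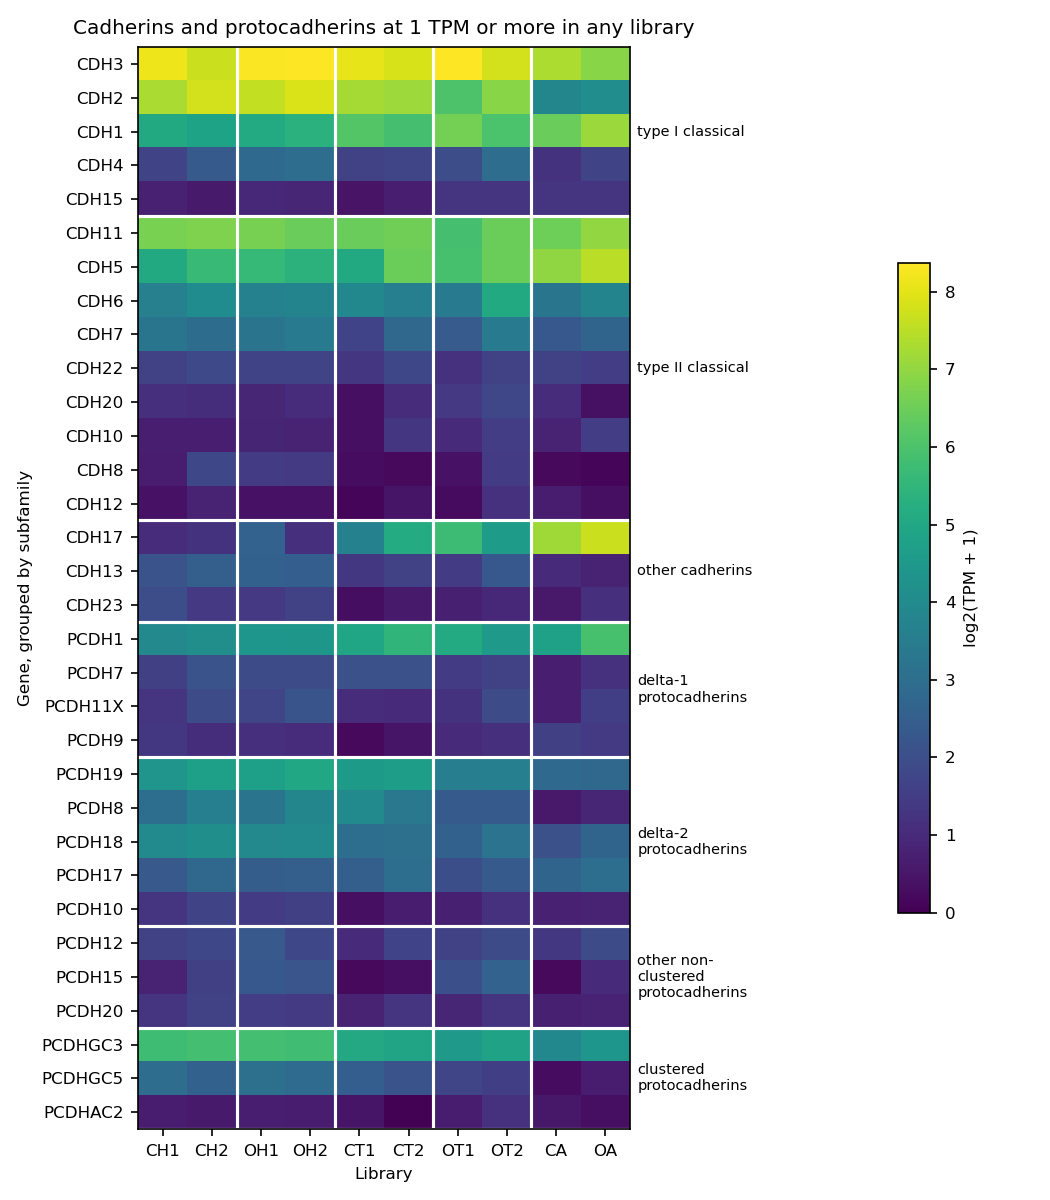
Level of the 32 members that reached 1 TPM in any library, as log2(TPM + 1) (color), with genes in rows by subfamily and the 10 libraries in columns. The row of CDH3 is bright throughout, from 116 TPM in OA to 329 TPM in OH2, and CDH17 brightens only toward the trunk and the area opaca, from 1.09 TPM in CH1 to 208 TPM in OA.

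The type I classical cadherins carried more than any other subfamily in the embryonic libraries, with 410 to 611 summed TPM. CDH3, called P-cadherin in mammals, was at 284 and 207 TPM in CH, 319.8 and 329 TPM in OH, 264 and 233 TPM in CT, 322 and 222 TPM in OT, 161 TPM in CA and 116 TPM in OA. It was the most abundant member in 8 of the 10 libraries, the exceptions being CH2, where CDH2 led, and OA, where CDH17 led. CDH2, N-cadherin, the main classical cadherin of the neural plate and somites, was at 158 and 219 TPM in CH, 192 and 235 TPM in OH, 150.1 and 139 TPM in CT, 63.8 and 116 TPM in OT, 13.2 TPM in CA and 16.0 TPM in OA. Both OT libraries lay below both CT libraries, and the area opaca lay below every embryonic library. CDH1, E-cadherin (L-CAM in chicken), the cadherin of nonneural epithelia, ran the other way, with 33.1 and 28.2 TPM in CH, 33.5 and 39.5 TPM in OH, 68.5 and 58.6 TPM in CT, 97.8 and 63.3 TPM in OT, 87.2 TPM in CA and 138 TPM in OA.

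The ratio of CDH1 to CDH2, a measure chosen after the values had been seen and given with no test, summarizes these opposite orders. It was 0.210 and 0.129 in CH, 0.175 and 0.168 in OH, 0.457 and 0.421 in CT, 1.53 and 0.545 in OT, 6.60 in CA and 8.64 in OA. OT1 was the only embryonic library with more CDH1 than CDH2 per transcript length. CDH4, R-cadherin of the neural retina and brain, was much lower, at 2.26 and 4.17 TPM in CH, 6.31 and 7.0 TPM in OH, 2.11 and 2.36 TPM in CT, 2.96 and 7.02 TPM in OT, 1.35 TPM in CA and 2.26 TPM in OA. Both OH libraries lay above both CH libraries and both OT libraries above both CT libraries. CDH15, the cadherin of muscle, stayed between 0.367 and 1.45 TPM.

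CDH3 and CDH1 lie next to each other on chromosome 11 of the GRCg7w assembly. CDH3 occupies positions 18859377 to 18865057 and CDH1 positions 18865659 to 18874368, with 601 bases and no other gene between them. Despite this arrangement their levels followed different orders, since CDH3 was lower and CDH1 higher in the area opaca than in the midbrain-hindbrain. CDH2 lies on chromosome 2, from 104470744 to 104585166, and at least 99.5% of its TPM came from 1 transcript model in every library.

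Among the type II classical cadherins, CDH11 and CDH5 were the abundant ones. CDH11, found in mesenchyme, was the most even of the abundant members, at 102 and 107 TPM in CH, 99.4 and 85.8 TPM in OH, 86.8 and 93.5 TPM in CT, 58.3 and 88.7 TPM in OT, 90.6 TPM in CA and 127 TPM in OA. CDH5, VE-cadherin of endothelial junctions, was at 33.1 and 49.1 TPM in CH, 47.9 and 40.2 TPM in OH, 33.0 and 88.3 TPM in CT, 60.6 and 88.7 TPM in OT, 124 TPM in CA and 182 TPM in OA. The CT duplicates of CDH5 differed from each other by more than any other duplicates of that gene. CDH6, the cadherin of premigratory neural crest in chicken, was at 11.4 and 15.7 TPM in CH, 11.9 and 12.7 TPM in OH, 14.0 and 11.1 TPM in CT, 9.85 and 32.7 TPM in OT, 8.54 TPM in CA and 12.7 TPM in OA. OT2 stood alone as the high library of CDH6. CDH7, the cadherin of migrating crest in chicken, was at 8.59 and 6.80 TPM in CH, 8.40 and 9.95 TPM in OH, 2.23 and 5.98 TPM in CT, 4.30 and 10.0 TPM in OT, 3.96 TPM in CA and 5.50 TPM in OA, and OT2 was again above OT1. The remaining 8 type II genes, CDH8, CDH9, CDH10, CDH12, CDH18, CDH19, CDH20 and CDH22, did not exceed 2.62 TPM in any library.

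CDH17, the liver-intestine cadherin, which has no catenin-binding tail, had the widest range of the abundant members. It was at 1.09 and 1.36 TPM in CH, 5.17 and 1.20 TPM in OH, 11.9 and 34.3 TPM in CT, 52.3 and 23.9 TPM in OT, 143 TPM in CA and 208 TPM in OA. The order of the libraries was that of the summed endoderm and yolk sac markers in its extremes, with the area opaca highest and the midbrain-hindbrain lowest. Of the same subgroup, CDH13 (T-cadherin, held to the membrane by a lipid anchor) lay between 0.757 and 5.00 TPM.

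**Figure D2:**
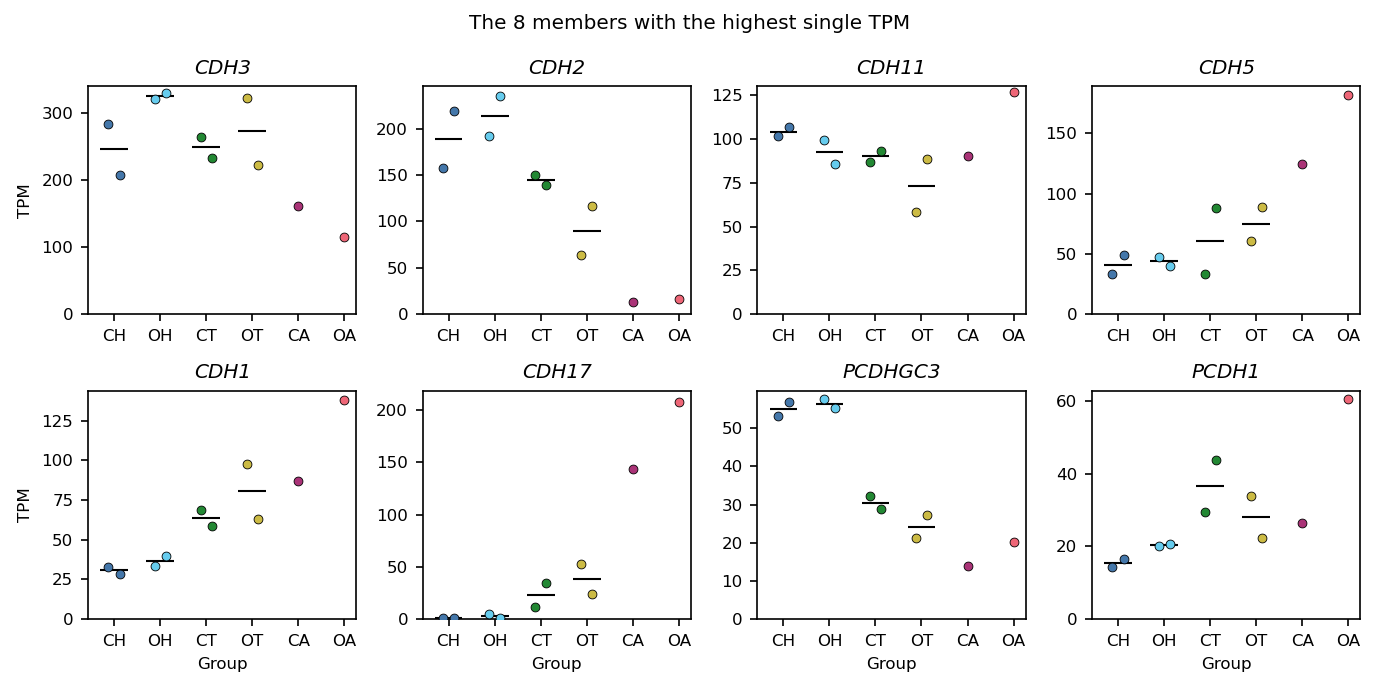
TPM (linear axes starting at 0) of the 8 members with the highest level in any library, by group; each point is 1 library, and the line is the mean of the 2 libraries of a group. CDH2 is lowest and CDH17 and CDH5 are highest in CA and OA, and PCDHGC3 is at 53.1 to 57.6 TPM in the midbrain-hindbrain and at 32.3 TPM or less elsewhere.

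Protocadherins were less abundant than the classical cadherins. PCDHGC3, a gamma-cluster gene, was at 53.1 and 56.8 TPM in CH, 57.6 and 55.3 TPM in OH, 32.3 and 28.7 TPM in CT, 21.3 and 27.2 TPM in OT, 13.9 TPM in CA and 20.1 TPM in OA, a level nearly equal among the 4 midbrain-hindbrain libraries. PCDH1, an epithelial protocadherin of the delta-1 group known as axial protocadherin in Xenopus, was at 14.3 and 16.6 TPM in CH, 20.0 and 20.6 TPM in OH, 29.6 and 43.8 TPM in CT, 33.8 and 22.2 TPM in OT, 26.5 TPM in CA and 60.5 TPM in OA. OA stood above all other libraries. PCDH18 of the delta-2 group was at 15.0 and 17.0 TPM in CH, 14.3 and 14.9 TPM in OH, 7.10 and 7.47 TPM in CT, 5.10 and 8.15 TPM in OT, 3.17 TPM in CA and 5.41 TPM in OA. PCDH17, another delta-2 gene, was flat, between 3.06 TPM in OT1 and 7.17 TPM in OA, and the 2 CH and 2 OH libraries lay within 4.02 to 5.91 TPM. PCDHGC5, the second gamma gene above 5 TPM, was at 6.95 and 5.00 TPM in CH, 7.49 and 6.51 TPM in OH, 4.59 and 3.43 TPM in CT, 2.40 and 1.96 TPM in OT, 0.209 TPM in CA and 0.599 TPM in OA.

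The first comparison asked how the trunk members differed between OT and CT. PCDH15 rose and PCDH19 and PCDH8 fell, and PCDHAC1, at 0 reads in both CT libraries, was counted in both OT libraries. The large classical cadherins CDH1, CDH2, CDH3, CDH5 and CDH11 did not pass the test. Of the 48 members, 38 had enough reads to be tested (the 10 removed were CDH19 and 9 alpha-cluster genes), and 4 of these 38 were called, 2 higher and 2 lower, at an adjusted p under 0.05 by edgeR (quasi-likelihood, Benjamini-Hochberg over the 16611 genes tested). Of all genes tested, 6.73% were called in this comparison, 4.29% higher and 2.44% lower, so 4 of 38 is not far from the background. An unadjusted p under 0.05 was reached by 19 of the 38 members, against 26.8% of all genes. With only the 4 trunk libraries it was reached by 9 of 36 members and by 3215 of 15902 genes. The median log2 fold change of the tested members was 0.70, against 0.03 for all genes, with 25 members positive and 13 negative, but the median was 0.21 without CT1 and 0.37 without OT2. Among the type II classical cadherins 9 of 11 were positive (median 0.77), though only 7 without CT1 (median 0.39) or without OT2 (median 0.20), and 10 without CT2 (median 1.47). Among the delta-2 protocadherins 4 of 5 were negative (median -0.67), with medians of -0.36 without CT2 and -0.93 without CT1, and 3 of 5 were negative without OT1.

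Markers of other cell types moved in the same comparison, in which 4.29% of all genes were called higher and 2.44% lower. Of 8 lateral mesoderm and heart markers 3 were called higher in OT (NKX2-5, TNNT2 and TBX5) and 2 lower (HAND2 and FOXF1), with a median log2 fold change of 1.69, summed levels of 334 and 405 TPM in CT and 408 and 468 TPM in OT, and TBX5 at 0 in CT1. Of 7 neural crest markers 3 were called higher (SOX10, FOXD3 and SOX8) and 1 lower (SNAI2), with summed levels of 149 and 201 TPM in CT and 105 and 152 TPM in OT, and FOXD3 at 0 in CT1. The 10 endoderm and yolk sac markers had a median of 1.51, summed levels of 2202 and 5557 TPM in CT and 12485 and 8655 TPM in OT, and none at 0. Their part in the members' differences was not tested.

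PCDH15, which with CDH23 forms the tip links of inner ear hair cells and is also found in photoreceptors, lies on chromosome 6 from 6188955 to 7167011. Its level was 0.169 and 0.271 TPM in CT and 3.13 and 5.24 TPM in OT. The midbrain-hindbrain libraries had 0.754 and 2.03 TPM in CH and 3.94 and 3.61 TPM in OH, and the area opaca had 0.150 TPM in CA and 0.980 TPM in OA. In each of the 3 tissues every Otx2 library lay above every control library. Other members, among them CDH4, had the same order, and its share over all genes was not counted. The fitted log2 fold change of OT over CT was 2.50 (SE 0.32; adjusted p = 0.0132 by edgeR with Benjamini-Hochberg adjustment). Without CT1 it was 2.20 and the call was lost (adjusted p = 0.0906), and it was also lost when only the 4 trunk libraries were fitted (adjusted p = 0.0652).

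The reads of PCDH15 were not spread evenly over its 8 transcript models. The longest model, of 36496 bases, held 68 of 72 reads in CT1 and 150 of 159 in CT2, but 102 of 425 in OT1 and 158 of 754 in OT2. The 7 shorter models together thus held 4 and 9 reads in CT and 323 and 596 reads in OT. The same side of the split was seen in the other tissues, with 6 and 171 reads on the shorter models in CH against 487 and 373 in OH, and 0 in CA against 117 in OA. The longest model itself held 399 and 340 reads in CH and 386 and 630 in OH. StringTie divided the reads among overlapping models in each library, so these shares depend on its assignment, and they are given with no test. Because TPM weighs shorter models more, the difference of PCDH15 between OT and CT in TPM is larger than that in reads.

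**Figure D3:**
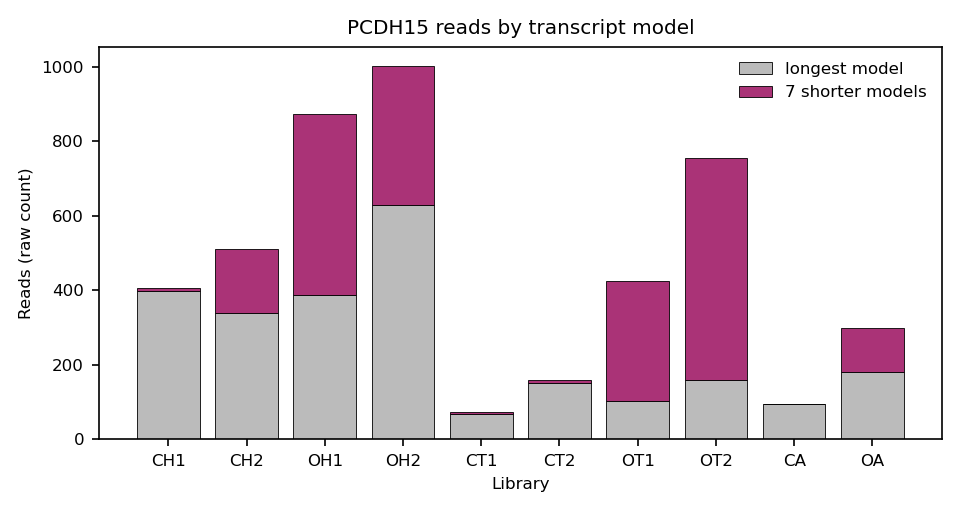
Raw reads of PCDH15 in the 10 libraries, divided into the longest transcript model (gray) and the 7 shorter models together (purple). The purple part holds 117 to 596 reads in the 5 Otx2 libraries and 0 to 171 reads in the 5 control libraries, where only CH2 exceeds 9 reads.

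PCDH19, a delta-2 protocadherin of the early neural tube and somites that forms complexes with N-cadherin, lies on chromosome 4 from 5200123 to 5252679. It was at 22.3 and 25.1 TPM in CT and 11.0 and 11.2 TPM in OT, and at 19.8 and 25.4 TPM in CH and 25.7 and 31.3 TPM in OH. The area opaca was lower, at 6.19 TPM in CA and 5.90 TPM in OA, so that both OT libraries lay between the control trunk and the area opaca. The log2 fold change of OT over CT was -1.05 (SE 0.14; adjusted p = 0.0148 by edgeR with Benjamini-Hochberg adjustment). It stayed at -1.13 without CT1, where the call was lost (adjusted p = 0.0825), and the call was also lost with only the 4 trunk libraries (adjusted p = 0.0540).

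PCDH8, paraxial protocadherin (PAPC), which acts in segmentation of the presomitic mesoderm and in convergence movements in frog and fish, lies on chromosome 1 from 165666620 to 165670863. It was at 14.6 and 9.13 TPM in CT, 4.21 and 4.16 TPM in OT, 7.21 and 11.1 TPM in CH, 8.41 and 13.2 TPM in OH, 0.470 TPM in CA and 0.882 TPM in OA. OT was below both the control trunk and the midbrain-hindbrain, and the 2 OT libraries were nearly equal. The log2 fold change was -1.46 (SE 0.33; adjusted p = 0.0443 by edgeR with Benjamini-Hochberg adjustment), and this call was close to the threshold. It was made under only 3 of 15 alternative settings, was lost when any 1 of the 8 libraries was left out (adjusted p = 0.0568 without CH1, 0.0562 without CH2, 0.0753 without OH1, 0.0773 without OH2, 0.0502 without CT2, 0.104 without OT1 and 0.111 without OT2), and reached an adjusted p of 0.245 at a log2 fold change of -1.08 without CT1. The summed level of the 11 paraxial mesoderm markers was 252 and 228 TPM in CT and 59.6 and 71.1 TPM in OT. Most of this fall lay in TBX6 and MSGN1. TBX6 was at 119 and 105 TPM in CT and 17.6 and 4.38 TPM in OT. MSGN1 was at 83.2 and 87.7 TPM in CT and 13.0 and 0.805 TPM in OT. The median log2 fold change of the 9 tested was 0.28, with signs in both directions, so the fall of the sum was not shared by all markers. Of these 9, only 1 was called lower (TBX6) and 1 was called higher (PAX1), against 2.44% and 4.29% of all genes. MEOX2 and UNCX were at 0 in CT1, PAX1 and UNCX in CT2, MESP2 and UNCX in OT1, and MESP2 in OT2. Their part in the result was not tested.

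PCDHAC1, a C-type gene of the alpha cluster on chromosome 13 (1262579 to 1333968), had 0 and 0 reads in CT and 23 and 22 reads in OT, with 35 and 24 reads in CH, 32 and 32 in OH, 0 in CA and 11 in OA. These are levels of 0.695 TPM or less. Set against a floor of 3 reads per library in CT, OT was at least 7.97-fold higher in CPM, reads scaled to the depth of the library. The adjusted p was 0.0199 by edgeR with Benjamini-Hochberg adjustment, and it rose above the threshold without OH1 (0.0600), OH2 (0.0605), CT1 (0.101) or CT2 (0.0511) and with only the 4 trunk libraries (0.0866). The alpha-cluster genes overlap and share exons, so reads can be moved from one to another. PCDHA6 had 7 and 36 reads in CT and 0 and 0 in OT, the reverse of PCDHAC1, and was not called (adjusted p = 0.0972 by edgeR with Benjamini-Hochberg adjustment). The 13 alpha genes together held 42 and 65 reads in CT (1.47 and 1.67 CPM) and 96 and 141 reads in OT (3.19 and 4.39 CPM).

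Several members not called in the trunk had duplicates that did not overlap. Of the 38 tested members, 12 were higher in both OT libraries than in both CT libraries and 9 were lower in both, against 25.9% and 29.6% of all genes. CDH2 was among the lower ones, with a log2 fold change of -0.66 (95% interval -1.25 to -0.06; adjusted p = 0.154 by edgeR with Benjamini-Hochberg adjustment). The estimate was -1.06 without OT2, where CDH2 passed the test (adjusted p = 0.0365), and -0.32 without OT1 (adjusted p = 0.346). PCDH9, a delta-1 protocadherin, came closest to the threshold, with 0.171 and 0.393 TPM in CT and 0.999 and 1.19 TPM in OT (log2 fold change 1.94, SE 0.46; adjusted p = 0.0512), and it passed without CT2 (adjusted p = 0.0499). CDH4 had a log2 fold change of 1.18 (SE 0.41; adjusted p = 0.122), which was 0.52 without OT2 and 1.65 without OT1, where it passed (adjusted p = 0.0360). CDH23, the tip-link partner of PCDH15, had one of 1.11 (SE 0.46; adjusted p = 0.179), with 0.67 without CT1 and 1.76 without CT2. For CDH1 the log2 fold change was 0.39, with a 95% interval that included 0, and for CDH3 it was 0.18, and without OT1 these were -0.0060 and -0.16. CDH17 had a log2 fold change of 0.78 with an SE of 0.72 (0.05 without OT1 and 1.73 without CT2), since the duplicates of CT and of OT spread over more than their difference.

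**Figure D4:**
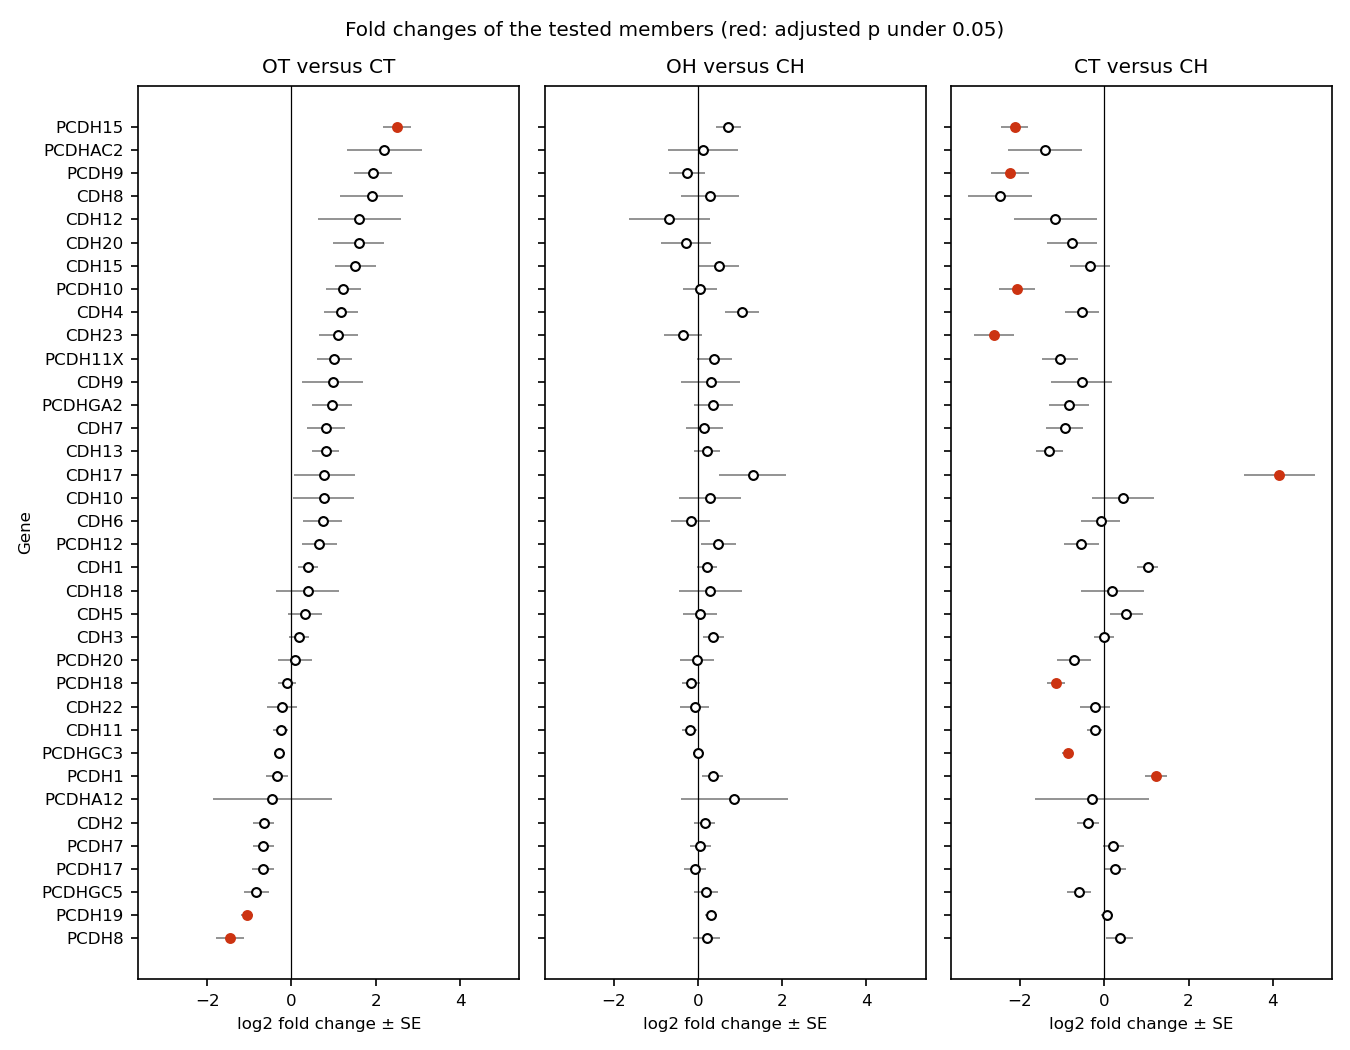
Log2 fold change with its standard error for 36 of the 38 tested members in OT versus CT, OH versus CH and CT versus CH, ordered by the trunk comparison (PCDHAC1 and PCDHA6, with groups at 0 reads, are left out). Red points passed the adjusted p of 0.05: PCDH15, PCDH19 and PCDH8 in the trunk, no member in the midbrain-hindbrain, and 8 of the drawn members between the control regions.

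The second comparison asked the same question of the midbrain-hindbrain, OH against CH. No member was called. CDH3, CDH2 and CDH11 were the leading members in both groups, and PCDHGC3 was at 53.1 to 57.6 TPM in the 4 libraries. By the edgeR test with Benjamini-Hochberg adjustment 0 of 38 members passed, while 0.0361% of all genes did. DESeq2 and limma also called 0 members, and an unadjusted p under 0.05 was reached by 2 members, against 2.76% of all genes. These were CDH4, with a log2 fold change of 1.04 (SE 0.40), and PCDH15, with one of 0.73 (SE 0.30), both at an adjusted p of 1 by edgeR. The intervals bound what could have been missed. CDH2 had a log2 fold change of 0.16 with a 95% interval of -0.43 to 0.75, CDH3 one of 0.36 (-0.21 to 0.94), and for PCDHGC3 the log2 fold change was smaller than its SE. The widest uncertainty among the abundant members was that of CDH17, at 1.30 (-0.55 to 3.14), where OH1 had 5.17 TPM and OH2 1.20 TPM, and the value was -0.08 without OH1. Duplicates did not overlap for 11 members higher and 3 lower in OH, against 19.3% and 12.8% of all genes.

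Whether the Otx2 effect differed between trunk and midbrain-hindbrain was tested as an interaction. No member was called (0 of 38 by edgeR with Benjamini-Hochberg adjustment, against 0.223% of all genes, 0.0843% higher and 0.138% lower), although 7 members had an unadjusted p under 0.05, against 13.1% of all genes. PCDH19 was nearest, with the OT-to-CT log2 fold change 1.37 below that of OH to CH, since PCDH19 was lower in the Otx2 trunk and had a log2 fold change of 0.31 in the Otx2 midbrain-hindbrain. Its interaction was -1.37 (SE 0.20; adjusted p = 0.0701 by edgeR with Benjamini-Hochberg adjustment), and it passed under DESeq2 (adjusted p = 5.57e-06) and without OT1 (adjusted p = 0.0455). PCDH15 had an interaction of 1.78 (adjusted p = 0.169) and PCDH8 one of -1.67 (adjusted p = 0.197). DESeq2 called 4 members, PCDH15, PCDH19, PCDH8 and PCDHAC1. The effects of the called trunk members were therefore not shown by edgeR to be particular to the trunk.

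The regional comparison of the control tissues, CT against CH, separated more members than either Otx2 comparison. CDH17 and PCDH1 were higher in the trunk, and PCDHGC3, PCDH18, PCDH15, PCDH10, PCDH9, CDH23 and PCDHAC1 were higher in the midbrain-hindbrain. Thus 9 of 38 members were called by edgeR with Benjamini-Hochberg adjustment, 2 higher and 7 lower in CT, against 7.78% of all genes (2.91% higher and 4.88% lower). The median log2 fold change was -0.53 over the members and 0.00 over all genes, with 27 of 38 negative, but it was -0.30 without CH1 and -0.34 without CT1. Duplicates did not overlap for 3 members higher and 17 lower in CT, against 25.0% and 24.0% of all genes.

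CDH17 had a log2 fold change of 4.15 (SE 0.84; adjusted p = 0.0288 by edgeR with Benjamini-Hochberg adjustment), from about 1 TPM in CH to 11.9 and 34.3 TPM in CT. The summed level of the 10 endoderm and yolk sac markers was 650.3 and 1011 TPM in CH and 2202 and 5557 TPM in CT, most of it from TTR and APOA1. None was called, 7 of 10 had an unadjusted p under 0.05 in either direction by edgeR, against 21.7% of all genes, and none was at 0 in any library. GATA4 and GATA6 had negative log2 fold changes (-1.56 and -1.04), and the other markers had positive ones. Other lists had genes called higher in CT, against 2.91% of all genes. These were 3 of 11 surface ectoderm, 3 of 7 notochord, 2 of 9 paraxial mesoderm and 2 of 10 endothelium and blood markers. Called lower were 0, 1, 2 and 0 of them, against 4.88%. The part of all these markers in the result was not tested. PCDH1 had a log2 fold change of 1.23 (SE 0.26; adjusted p = 0.0312). CDH1, at 1.03 (SE 0.25; adjusted p = 0.0504), and CDH13, at -1.30 (SE 0.32; adjusted p = 0.0523), missed the threshold narrowly. Of the 15 alternative settings, CDH1 passed under 8 and CDH13 under 4. For CDH2 the log2 fold change was -0.38 (adjusted p = 0.461) and for CDH3 it was -0.01, so that the 2 leading members were not shown to differ between the control regions.

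Of the members lower in CT, PCDHGC3 was the most abundant and had the smallest change, a log2 fold change of -0.86 (SE 0.13; adjusted p = 0.0111 by edgeR with Benjamini-Hochberg adjustment). PCDH18 followed at -1.15 (SE 0.22; adjusted p = 0.0223). PCDH15 was at -2.12 (SE 0.32; adjusted p = 0.0110), and its tip-link partner CDH23, at 2.90 and 1.62 TPM in CH and 0.239 and 0.511 TPM in CT, at -2.61 (SE 0.48; adjusted p = 0.0205). PCDH10, OL-protocadherin of the nervous system, was at 1.44 and 2.28 TPM in CH and 0.281 and 0.551 TPM in CT (log2 fold change -2.06, SE 0.42; adjusted p = 0.0304). PCDH9 was at 1.58 and 1.12 TPM in CH and 0.171 and 0.393 TPM in CT (-2.23, SE 0.46; adjusted p = 0.0303). In the reads assigned to it, PCDHAC1 was at least 10.4-fold higher in CH than in CT, set at the floor of 3 reads per library (adjusted p = 0.0108). Reads can be moved among the alpha genes, and PCDHA6 had 1 and 11 reads in CH and 7 and 36 in CT. The 13 alpha genes together were at 3.19 and 2.45 CPM in CH and 1.47 and 1.67 CPM in CT, a smaller difference. PCDHGC3, PCDHGC5 and PCDHGA2 overlap on chromosome 13, so their reads can be exchanged, but the 3 gamma genes together had the same order, at 153 and 149.6 CPM in CH and 90.8 and 78.9 CPM in CT. The 8 neural epithelium markers were also lower, from 356 and 296 summed TPM in CH to 117 and 85.0 TPM in CT, with 5 of 8 called lower and none at 0 in CH or CT. Of 7 neural crest markers 4 were called lower and 0 higher (median log2 fold change -3.19), with FOXD3 at 0 in CT1. Of 8 lateral mesoderm and heart markers 4 were called lower and 3 higher (median -2.37), with TBX5 at 0 in CT1. The shares over all genes were 4.88% lower and 2.91% higher. The part of these markers in the results was not tested.

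The calls between the regions changed when 1 library was left out, over all genes as well as among the members. Without CH1 there were 2 calls (PCDH15 and PCDHAC1), and the 7 lost ones had adjusted p from 0.0555 for PCDHGC3 to 0.158 for CDH17. Without CT1 there were again 2 (CDH17 and PCDHAC1), with lost ones from 0.0507 for PCDH1 to 0.119 for PCDH18. Without CH2 there were 4, CDH17 (0.135), PCDH1 (0.123), PCDH10 (0.117), PCDH18 (0.0867) and PCDH9 (0.0543) being lost. Without CT2 there were 5, CDH17 (0.104), PCDH1 (0.139), PCDH18 (0.0990) and PCDHGC3 (0.0720) being lost. Leaving out OH1 or OH2, which are in neither group compared, also lost the calls of PCDH1, PCDH9, PCDH10 and PCDH18. Their log2 fold changes stayed at 1.23, -2.23, -2.06 and -1.15. The gene filter, the scaling, the spread and the adjustment were all redone in these fits. They tested 17281 genes without OH1 and 17257 without OH2, against 16611 in the main fit. PCDHAC1 was called under all 15 alternatives.

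**Figure D5:**
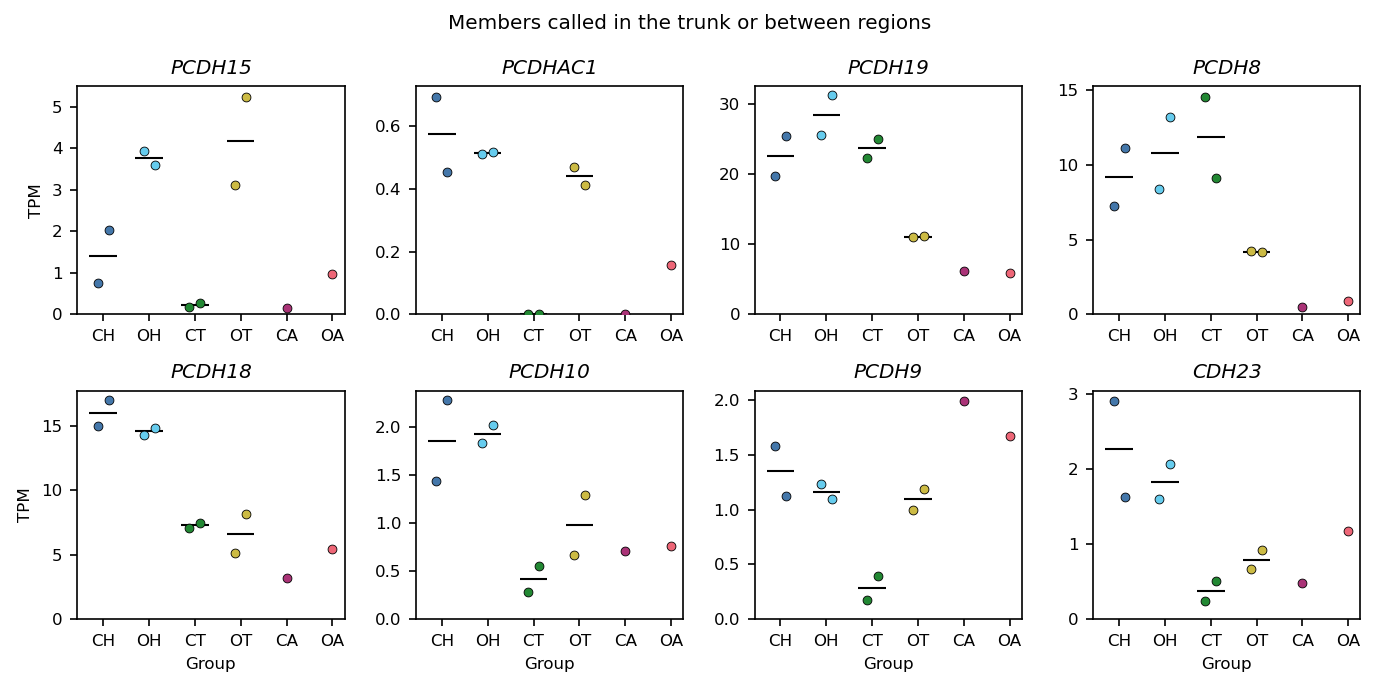
TPM (linear axes starting at 0, with a different range in each panel) of 8 members called in OT versus CT or CT versus CH, by group; each point is 1 library, and the line is the mean of the 2 libraries of a group. PCDH15 and PCDHAC1 are higher in OT than in CT, PCDH19 and PCDH8 are lower, and in the 4 lower panels both CH libraries lie above both CT libraries.

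The trunk fall of PCDH19 and PCDH8 and the regional differences did not follow one pattern in OT. PCDH15 reached a TPM in OT (3.13 and 5.24 TPM) close to that in OH (3.94 and 3.61 TPM) and above that in CH. In the CPM of the fit, however, OT (14.6 and 22.9 CPM) overlapped with CH (13.7 and 15.1 CPM). PCDH9 (0.999 and 1.19 TPM) and PCDHAC1 (0.471 and 0.414 TPM) in OT overlapped with CH. PCDH18, in contrast, had a log2 fold change of -0.11 (95% interval -0.61 to 0.40) in OT against CT, and both OT libraries of PCDHGC3 lay below both CT libraries, farther from CH. The comparisons OT against CT and CT against CH share the CT libraries, so these values are placed side by side and no relation between them was tested.

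The area opaca libraries, 1 for each condition, entered no test, and counting intervals cover counting error only. CDH17, CDH5 and PCDH9 were above all 8 embryonic libraries in both CA and OA, which was 3 of the 32 members that reached 1 TPM, against 8.88% of all genes. CDH17 was counted with 8400 reads in CA (95% exact Poisson interval 8221 to 8582) and 14749 in OA (14512 to 14989). Below all 8 embryonic libraries were 9 members, CDH2, CDH3, CDH13, PCDH7, PCDH8, PCDH19, PCDH20, PCDHGC3 and PCDHGC5, against 29.9% of all genes. CDH2 had at most 16.0 TPM in the area opaca and at least 63.8 TPM elsewhere.

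With exogenous Otx2 in the area opaca, 24 members were at 1 TPM or more in the higher library. Of these, 5 were at least 2-fold higher in TPM in OA than in CA, against 8.32% of all genes, and 1 was at least 2-fold lower, against 4.61%. The higher ones were PCDH1 (2.28-fold), PCDH7 (2.04-fold), PCDH11X (3.10-fold), CDH10 (2.30-fold) and CDH23 (2.42-fold). In CPM, PCDH7 was less than 2-fold apart, at 3.19 in CA and 5.78 in OA. The reads given next are not scaled to depth, and OA held 40806402 assigned reads against 30079148 in CA. CDH20, at 0.277 of its CA level, was the lower one, from 72 reads (95% exact Poisson interval 56.3 to 90.7) to 24 reads (15.4 to 35.7). PCDH1 rested on 3383 reads in CA (3270.0 to 3499) and 9282 in OA (9094 to 9473), the deepest of these differences. PCDH15, at 0.980 TPM in OA, stayed under the limit of 1 TPM with 95 reads in CA (76.9 to 116) and 298 in OA (265 to 334). With 1 pool for each condition, a difference between conditions and one between pools cannot be told apart.

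The partners and regulators of the cadherins were read from the same fit for 3 lists. Over all genes tested, 4.29% were called higher and 2.44% lower in OT against CT. In CT against CH these shares were 2.91% and 4.88%. Of 18 tested genes of the junction itself (catenins, plakophilins, vinculin, afadin, nectins and zonula occludens proteins), 0 were called higher and 1 lower in OT against CT, namely NECTIN1, an immunoglobulin-type adhesion molecule, at a log2 fold change of -0.51 (adjusted p = 0.0411 by edgeR with Benjamini-Hochberg adjustment). The median of this list was 0.15. CTNNB1, beta-catenin, was at 565 and 596 TPM in CT and 669 and 609 TPM in OT and was not called. Between CT and CH the desmosomal plakophilins PKP2 (log2 fold change 0.71; adjusted p = 0.0315) and PKP3 (1.60; adjusted p = 0.0286) were higher in CT, and CTNNA3, an alpha-catenin of heart and testis, was lower, at 0 and 0.0943 TPM in CT against 0.552 and 7.16 TPM in CH (adjusted p = 0.0431).

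Among 18 tested genes of the wider cadherin superfamily (desmosomal cadherins, FAT, DCHS, CELSR, CDHR and CLSTN genes and RET), 2 were called higher and 0 lower in OT. The shares over all genes were 4.29% and 2.44%. CDHR1, the cadherin of photoreceptor outer segments, was at 0.0237 and 0.0579 TPM in CT and 1.17 and 5.01 TPM in OT (log2 fold change 5.16; adjusted p = 0.0132 by edgeR with Benjamini-Hochberg adjustment). It was at 0.391 and 0.188 TPM in CH, 0.867 and 1.22 TPM in OH, 0.0526 TPM in CA and 2.49 TPM in OA. Like PCDH15, it was thus higher in every Otx2 library than in the controls of the same tissue. The same order was also seen in other genes, among them CLSTN1 and CELSR1 of this list, FN1 of the list below and the member CDH4. Its share over all genes was not counted, so it does not set CDHR1 and PCDH15 apart. CLSTN1, calsyntenin, was at a log2 fold change of 0.46 (adjusted p = 0.0457). In CT against CH, CELSR2, a cadherin of planar cell polarity, was lower (-1.32; adjusted p = 0.0107), and so was CDHR1 (-2.64; adjusted p = 0.0454).

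Of 13 transcription factors and mesenchymal genes tied to cadherin repression, TWIST1 (log2 fold change 4.16; adjusted p = 0.0206 by edgeR with Benjamini-Hochberg adjustment) and GSC (adjusted p = 0.0322) were called higher in OT. GSC had 0 TPM in both CT libraries and 0.362 and 1.14 TPM in OT. SNAI2, a repressor of E-cadherin, was called lower, with 110 and 125 TPM in CT and 49.4 and 76.6 TPM in OT (-0.86; adjusted p = 0.0409). The shares over all genes in OT against CT were 4.29% higher and 2.44% lower. Between CT and CH, 5 of the 13 were called lower in CT, against 4.88% of all genes, namely TWIST1, FOXC2, PRRX1, GSC and VIM. None of the genes of these 3 lists was called in OH against CH or in the interaction by edgeR with Benjamini-Hochberg adjustment. At an unadjusted p under 0.05 there were 1, 3 and 2 genes of the lists, in the order given here, in OH against CH and 4, 2 and 4 in the interaction. Over all genes the shares at the unadjusted p were 2.76% in OH against CH and 13.1% in the interaction. At the adjusted p they were 0.0361% and 0.223%.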

How the data were processed

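Poly-A RNA of 10 pooled tissue samples was sequenced as 100 bp paired-end reads. The authors mapped the reads to the chicken genome GRCg7w supplemented with mouse Otx2 and EGFP (annotation of NCBI) and assembled and quantified transcripts with StringTie; the deposited gene table holds raw counts and TPM, and the TPM were used as deposited. The aligner, program versions and strand setting are not given in the sources used here, so overlapping and antisense genes may share reads. The 20 FPKM columns were not used. Gene counts equaled the sums over transcripts.

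Members were taken by symbol. The members, gene lists and marker lists were chosen with earlier results of these data known. Chromosome numbers came from the RefSeq table of GRCg7b, which matched 44 of the 48 members by gene identifier, and positions are those of GRCg7w. The 8 replicated libraries entered 1 fit of their counts in edgeR 4.0.16 (R 4.3.3) with TMM scaling, filterByExpr, 1 coefficient per group and the quasi-likelihood test, which left 4 residual degrees of freedom and a biological coefficient of variation of 27.9%; 8832 genes with low counts were removed. A call is a Benjamini-Hochberg adjusted p under 0.05. The edgeR test was also run on simulated counts, with changes placed only in well-counted genes and no vector difference between the control trunk libraries. That run does not cover genes with few reads, such as PCDHAC1, or the difference between CT1 and CT2. Intervals are 95%, and intervals of counts and the floor of 3 reads cover counting error only. Python 3.11.15 with pandas 2.3.3, scipy 1.17.1 and matplotlib 3.10.9 made tables and plots.

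Values per library are given for members called in any comparison or at 5 TPM or more in any library, and the other members by range or count. As exceptions, PCDH17 is given by range, and PCDH9, PCDH10 and CDH23 only for some of the groups. Those named for a near miss, a non-overlap, the area opaca or reads that mirror another gene were chosen after their values were seen. Alternatives were DESeq2 1.42.0, RLE scaling, no filter, limma 3.58.1 on log2(TPM + 1) and log2(TPM + 0.1), only the 4 libraries compared, a replicate block, and each library left out.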

Additional observations from a re-analysis of the deposited data

How the results depend on the processing

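No called fold change of a member turned its sign under any alternative, but uncalled ones did, for 9 of the 38 members in OT against CT, 17 in OH against CH, 13 in the interaction and 11 in CT against CH. Leaving out 1 library gave log2 fold changes in OT against CT of -0.0060 to 0.74 for CDH1, -0.16 to 0.49 for CDH3, -0.27 to 1.34 for CDH6 (called without OT1) and -0.39 to 0.16 for PCDH18. In OH against CH it gave -0.083 to 1.99 for CDH17 and -0.0273 to 0.0567 for PCDHGC3, and in CT against CH -0.27 to 0.32 for CDH3. In CT against CH, CDH3 was at 0.0335 by limma on log2(TPM + 1), 0.0337 on log2(TPM + 0.1) and 0.0183 with the replicate block. In OT against CT, 8 members were called by DESeq2 (CDH4, PCDH8, PCDH9, PCDH10, PCDH15, PCDH19, PCDHA6 and PCDHAC1), 0 with only the 4 trunk libraries, and 0 to 6 when 1 library was left out: 0 without CT1, 2 without OH1 or OH2, and 6 without OT1. In CT against CH the range without 1 library was 2 to 11. In the interaction DESeq2 called 4 members, and leaving out 1 library gave 0 to 1. In OH against CH every alternative gave 0. The cause was not tested. Over all genes, DESeq2 called 2755 in OT against CT, 58 in OH against CH, 788 in the interaction and 2449 in CT against CH, against 1118, 6, 37 and 1293 by edgeR; in the trunk, 135 were called with only the 4 trunk libraries and 53 without CT1.

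The replicate numbers did not pair the samples: correlations of deviations between same-numbered libraries ran from -0.155 to 0.143. With the replicate block 3 members were called in OT against CT (PCDH8 was lost), 0 in OH against CH, 0 in the interaction and 8 in CT against CH. Depth limits the 16 members under 1 TPM, 10 of which had too few reads to be tested.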
